A study of Oryza sativa with 8 samples.

Results

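The difference between the shade responses of 2 rice tissues was measured for each locus as the first leaf response minus the coleoptile response. A response was the mean of the shade libraries minus the mean of the white light libraries on the log2(FPKM + 1) scale. FPKM is the number of sequenced fragments of a transcript relative to its length and to the size of the library. The members were 21014 of 55801 loci, those whose FPKM averaged 1 or more across all 8 libraries, and the loci nearest that limit had means of 1.0 FPKM inside it and 0.9995 FPKM outside it. Most of what follows concerns loci whose responses had opposite signs in the tissues or that responded in 1 tissue with the other near 0. All plants were wild type seedlings of the japonica rice Nipponbare. After 24 h in water at 37 °C, they were raised at 28 °C in white light without a dark period. The coleoptile, the sheath around the emerging shoot of a grass seedling, was taken at 2 days of age, and the first leaf at 3 days. In each tissue, 2 libraries came from seedlings left in white light and 2 from seedlings given simulated shade for 1 h, a light poor in red and rich in far-red (48 µE per square metre and second of far-red, 16 of red and 1.3 of blue). Tissue and age cannot be told apart in this design. The labels do not say whether replicates were separate cultures, and every p-value below rests only on the spread among these libraries, which may be technical.

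Plants detect shade through phytochromes, photoreceptors that far-red light returns to their inactive form. In many seedlings, phytochrome-interacting factors and the hormones auxin, gibberellin and brassinosteroid then alter the growth of stems and leaf sheaths. The coleoptile of rice is also known for growing under water without oxygen, on ethanol fermentation, while the first leaf builds chloroplasts in the light.

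The FPKM of a library summed to between 696059 and 808054, and 26693 to 28127 loci were above 0. Total fragments are unknown. Judged from steps between low values, the other libraries had 0.865 to 1.43 times the depth of white light coleoptile replicate 1, although only 29.7% to 37% of low loci sat at such a step. The white light coleoptile libraries stood apart from each other, with a correlation of 0.914 across loci and 3167 loci over 2-fold apart, against correlations of 0.975 to 0.982 and 299 to 566 such loci in the other groups. Leaf markers were checked as the summed FPKM of 21 chlorophyll-binding and Rubisco small chain loci. The sum was between 35598 and 46002 FPKM in first leaf libraries and between 15957 (white light coleoptile replicate 1) and 26005 FPKM in coleoptile libraries. The part of leaf cells or of chloroplast development in the results was not tested. Of 18 endosperm storage protein loci 13 were at 0 everywhere, with sums of 1.07 to 2.35 FPKM, and the sum of 2 root silicon transporters was between 4.35 and 24.5 FPKM. These are bulk samples, in which fewer cells of a type and less RNA per cell cannot be told apart. An exact 0 in such a table can be a failed estimate, so such values are given as listed at 0.

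The test asked whether a locus responded to shade differently in the leaf than in the coleoptile. The difference passed limma's test at 4 loci, or 0.019% of those tested, at a Benjamini-Hochberg adjusted p under 0.05. At 1 of them (0.00476%), an aldehyde dehydrogenase, the first leaf response was the higher one. At the other 3 (0.0143%), neighbours on chromosome 10 that include 2 glycine-rich cell wall loci, the coleoptile response was the higher one. Without adjustment, 1173 loci (5.58%) had p under 0.05, of which 765 had the higher response in first leaf (3.64%) and 408 in coleoptile (1.94%). The count of 4 rested on the libraries used, since it was 52 without white light coleoptile replicate 1, 887 without replicate 2 of that group, and 0 without any 1 of the other 6 libraries.

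Each locus was also classed by its library values, as a description with no test of its own. The classes were picked from the same values as the test, so p-values of their members are no separate support for them. Responses were called opposite where the shade and white light libraries did not overlap in either tissue and both changes were at least 0.5 in size with opposite signs. By that rule 91 loci (0.433%) were higher in the shaded first leaf and lower in the shaded coleoptile, and 28 (0.133%) were the reverse. Responses in 1 tissue had libraries that did not overlap and a change of at least 1 there, and a change under 0.5 in the other tissue. There were 724 such loci for the coleoptile (3.45%), 119 higher (0.566%) and 605 lower (2.88%) in shade, and 213 for the first leaf (1.01%), 78 higher (0.371%) and 135 lower (0.642%). Over all loci tested, shade and white light libraries did not overlap at 32.6% in the coleoptile and 39.7% in the first leaf, and in both tissues at 9.57% with the same direction and 3.71% with opposite directions. Across the 21014 loci the responses of the tissues, which share no libraries, had a Pearson correlation of 0.18 and a Spearman correlation of 0.26, and 59.1% of loci had the same sign.

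**Figure D1:**
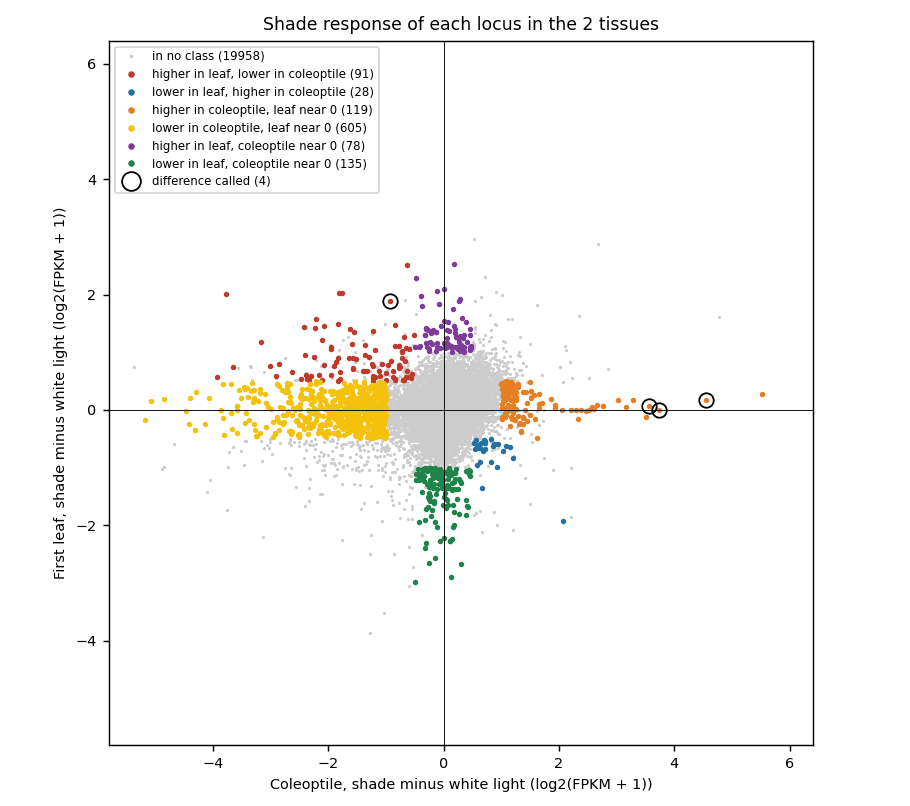
Each point is 1 locus, with its coleoptile response on the x axis and its first leaf response on the y axis, both as shade minus white light on the log2(FPKM + 1) scale. Colours mark the classes and open circles mark the 4 loci whose difference passed the test; the arm of 605 loci lower in the shaded coleoptile with first leaf near 0 is the most populated one.

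Genes of fermentation and oxygen response were among the loci higher in the shaded first leaf and lower in the shaded coleoptile. Aldehyde dehydrogenase LOC_Os02g49720, of a family that oxidises aldehydes such as the acetaldehyde of ethanol fermentation, was the only locus of this class to pass the test. It was at 16.2 and 17.6 FPKM in the white light coleoptile and 7.69 and 9.19 FPKM in the shaded coleoptile, and at 8.93 and 7.08 FPKM in the white light leaf and 34.1 and 30.6 FPKM in the shaded leaf. Shade and white light did not overlap in either tissue, and the shaded leaf was the highest group although the white light leaf was among the lowest. The coleoptile response was -0.93 ± 0.18 (SE) and the first leaf response 1.89 ± 0.18 on the log2 scale, neither of which passed within its tissue (limma adjusted p = 0.143 and 0.0570). Their difference of 2.82 ± 0.26 did pass (limma adjusted p = 0.0480). It lay between 2.67 and 2.97 with each library left out in turn, with adjusted p from 0.00456 to 0.574, and ended as a call with libraries scaled to equal medians (adjusted p = 0.0546), a pseudocount of 0.1 (0.103) or a mean of at least 5 FPKM (0.109).

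Pyruvate decarboxylase isozyme 2 (LOC_Os03g18220), which makes acetaldehyde from pyruvate, was at 188 and 126 FPKM in the white light coleoptile and 82.2 and 88.9 FPKM in its shade libraries. In the first leaf it was at 113 and 92.1 FPKM in white light and 179 and 121 FPKM in shade. The groups did not overlap in either tissue, and the difference of 1.37 ± 0.38 did not pass (limma adjusted p = 0.614). LOC_Os11g10510, annotated only as a dehydrogenase, was at 27.9 and 12.5 FPKM in the white light coleoptile, 4.71 and 6.3 FPKM in the shaded coleoptile, 0.0962 and 0.223 FPKM in the white light leaf, and 2.0 and 2.13 FPKM in the shaded leaf. Its lower shade libraries in the coleoptile and higher ones in the leaf gave a difference of 3.02 ± 0.50 (limma adjusted p = 0.281).

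The 2-aminoethanethiol dioxygenases are thiol-oxidising enzymes, a family that in Arabidopsis includes oxygen sensors, and 2 of them fell in this class. LOC_Os03g45250 was at 24.0 and 10.2 FPKM in the white light coleoptile, 2.73 and 3.08 FPKM in the shaded coleoptile, 0.602 and 1.27 FPKM in the white light leaf and 3.29 and 3.59 FPKM in the shaded leaf. In shade the tissues were close together, where in white light the coleoptile was far above the leaf. LOC_Os12g42860 was at 57.8 and 33.9 FPKM, then 26.8 and 26.1 FPKM, in the white light and shaded coleoptile, and at 28.1 and 40.0 FPKM, then 74.7 and 63.9 FPKM, in the white light and shaded leaf. The differences were 3.32 ± 0.54 and 1.74 ± 0.39 (limma adjusted p = 0.244 and 0.454). Hypoxia-responsive family locus LOC_Os12g02040 was at 78.1 and 93.1 FPKM in the white light coleoptile, 41.3 and 37.6 FPKM in the shaded coleoptile, 28.4 and 27.7 FPKM in the white light leaf and 47.1 and 38.9 FPKM in the shaded leaf. Its difference was 1.69 ± 0.24 (limma adjusted p = 0.170), and that of the hypoxia-responsive family locus LOC_Os07g47670 was 2.46 ± 0.92 (adjusted p = 0.801), with white light coleoptile libraries at 58.1 and 11 FPKM.

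A list of annotated alcohol, aldehyde and lactate/malate dehydrogenases, pyruvate decarboxylases, thiol dioxygenases, hemoglobins, sucrose synthases and hypoxia-responsive loci was drawn up after these values were seen. Of its 55 loci tested, 1 was called, 6 had opposite responses and 2 were lower in the shaded coleoptile alone, so that 14.5% were in some class, against 5.03% of all loci. Its median difference was 0.12, against -0.03 over all loci. The list as a whole was near the rest of the table by that median, and LOC_Os07g43700, a lactate/malate dehydrogenase, had a difference of -0.84 in the other direction.

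Universal stress proteins, small nucleotide-binding proteins that many stresses induce, held 4 of the 91 loci and 6 classed loci of 22 tested (27.3%, against 5.03%), with 0 called and 6 at an unadjusted p under 0.05 in limma. LOC_Os05g28740 was at 9.85 and 3.74 FPKM in the white light coleoptile and 1.21 and 1.04 FPKM in shade, and at 15.1 and 24.6 FPKM in the white light leaf and 78.4 and 84.2 FPKM in shade. LOC_Os03g19270 was at 45.7 and 19.7 FPKM, then 6.42 and 5.08 FPKM, in the white light and shaded coleoptile, and at 2.43 and 3.51 FPKM, then 11.5 and 9.98 FPKM, in the white light and shaded leaf. The differences were 3.78 ± 0.55 (limma adjusted p = 0.176) and 3.79 ± 0.52 (adjusted p = 0.170), and the groups did not overlap in any tissue. The others were LOC_Os07g47620, with a difference of 2.86 ± 0.53, and LOC_Os10g30150, with 2.40 ± 0.46. Without white light coleoptile replicate 1 the differences were 3.18, 3.20, 2.32 and 2.01 in the order named. Their sign could not turn, since the class rule asks for libraries that do not overlap in either tissue. The median of all 22 was 0.18, since 8 of them had a negative difference.

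Cytochrome P450 90C1 (LOC_Os07g04410), whose Arabidopsis namesake hydroxylates brassinosteroids, had the smallest p of those that did not pass. It was at 3.29 and 1.85 FPKM in the white light coleoptile and 3.36 and 2.83 FPKM in the shaded leaf, and listed at 0 in both shaded coleoptile and both white light leaf libraries. The difference was 3.84 ± 0.38 on the log2(FPKM + 1) scale, which is no fold against a group at 0 (limma adjusted p = 0.0656). B-box zinc finger locus LOC_Os02g43170, of a family of light-regulated transcription factors, was at 114 and 90.7 FPKM in the white light coleoptile, 37.1 and 40.9 FPKM in the shaded coleoptile, 22.1 and 15.2 FPKM in the white light leaf and 28.8 and 46.1 FPKM in the shaded leaf. The shaded tissues overlapped at a level between the white light ones, with a difference of 2.32 ± 0.39 (limma adjusted p = 0.284). Calcium-binding protein LOC_Os03g07600 was at 15.7 and 15 FPKM in the white light coleoptile, 5.18 and 5.43 FPKM in shade, 2.09 and 2.18 FPKM in the white light leaf and 3.92 and 4.1 FPKM in shade. Its replicates lay close together in every group, and the difference was 2.05 ± 0.24 (limma adjusted p = 0.103).

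Among regulators in the same class, VQ domain loci, partners of WRKY transcription factors, numbered 3 of 24 tested, against 0.433% of all loci. Their differences were 3.35 (LOC_Os06g33970), 2.99 (LOC_Os02g15290) and 1.45 (LOC_Os07g48710). The VQ list was drawn up after values were seen. Its median difference of 0.63 was 0.24 without white light coleoptile replicate 1 and 1.14 without replicate 2. WRKY53 (LOC_Os05g27730) was at 337 and 86.9 FPKM in the white light coleoptile, 48.5 and 66.9 FPKM in its shade libraries, 113 and 57.7 FPKM in the white light leaf and 114 and 160 FPKM in the shaded leaf. Its groups touched without overlapping in the leaf, and the difference was 2.31 ± 0.86 (limma adjusted p = 0.801). The respiratory burst oxidase LOC_Os12g35610, of the family that makes extracellular superoxide, had a difference of 2.56 ± 0.53 (adjusted p = 0.397). Of 28 ethylene loci tested, 1 was in this class, the 1-aminocyclopropane-1-carboxylate oxidase LOC_Os01g39860. It was at 24.7 and 18.5 FPKM, then 14 and 14.3 FPKM, in the white light and shaded coleoptile, and at 30.6 and 29.3 FPKM, then 46.9 and 42.2 FPKM, in the leaf. Its difference was 1.12 ± 0.25 (adjusted p = 0.454). LOC_Os08g30150 and LOC_Os08g30210, annotated as homologs of such an oxidase and in no class, went the other way, at -0.97 ± 0.28 and -0.91 ± 0.32 (adjusted p = 0.658 and 0.773). Over the ethylene list 13 differences were positive and 15 negative. Of the 91 loci, 86 had an unadjusted p under 0.05 for the difference in limma, against 5.58% of all loci. Their median responses were -1.36 in coleoptile and 0.78 in first leaf. The class rule, which asks for opposite changes in the same values, favours both results.

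In white light 83 of the 91 loci were higher in the coleoptile than in the leaf (91.2%, against 47.8% of all loci). The white light libraries enter both that comparison and the responses. White light coleoptile replicate 1 exceeded replicate 2 by a median of 0.92 on the log2 scale over the 91, against -0.02 over all loci, and 47 had these replicates within 2-fold. Without replicate 1 the class held 69 of the 91, and without replicate 2 it held 89. Libraries that do not overlap stay so when any is left out. A locus could therefore leave only through the limit on the size of its change. Replicate 2 was by median the lower of the pair, and leaving out the lower one enlarges the fall in the coleoptile. These counts are therefore no separate support for the class.

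**Figure D2:**
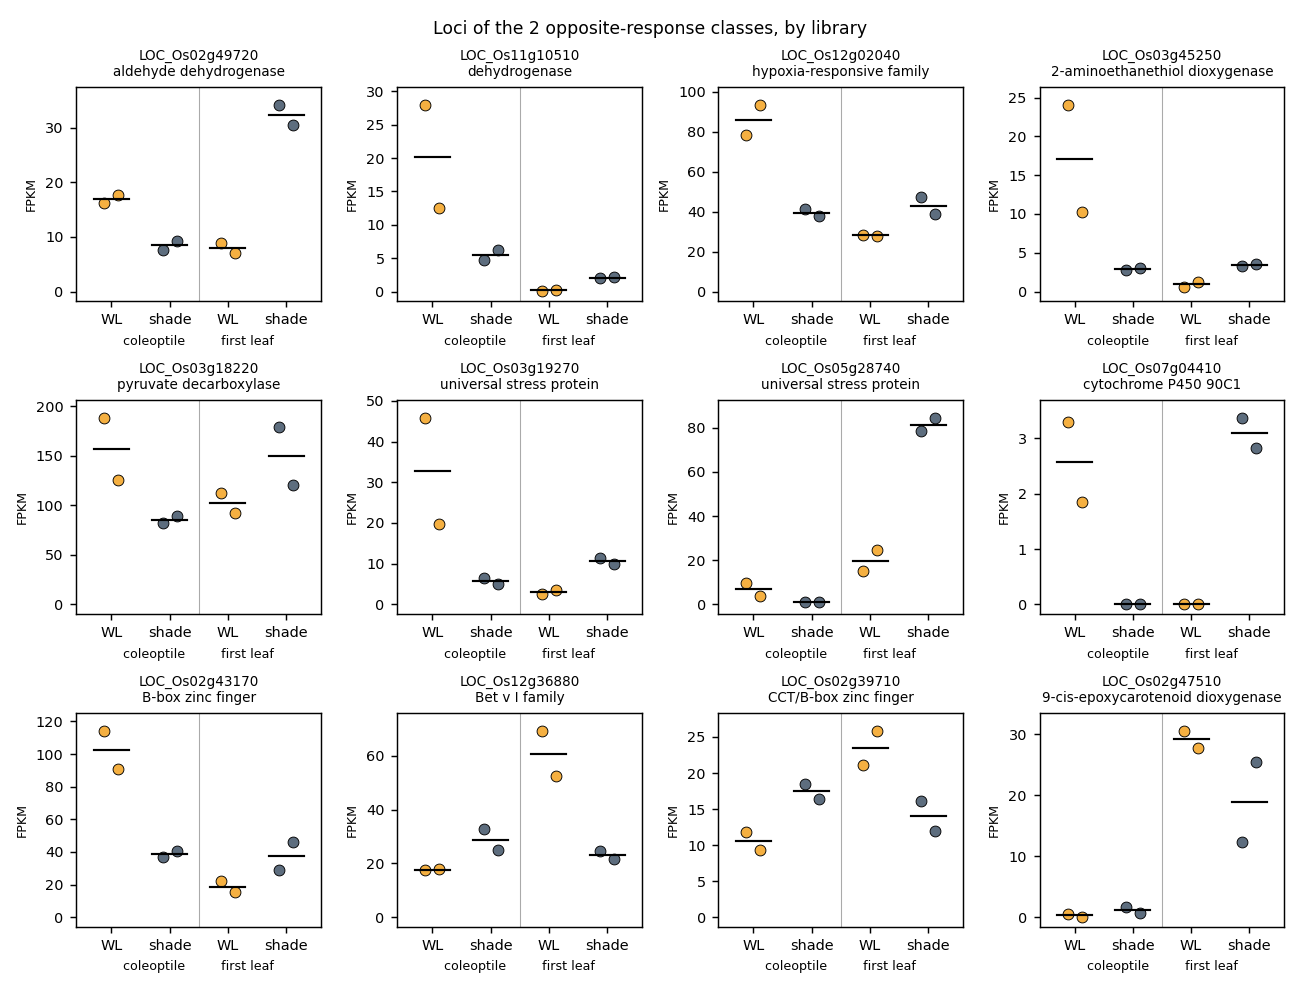
FPKM of 12 loci in each library, with orange points for white light (WL), grey points for shade and a bar at the mean of 2 libraries, and a vertical line between coleoptile and first leaf. The first 9 panels show loci lower in the shaded coleoptile and higher in the shaded leaf, and the last 3 the reverse, with the aldehyde dehydrogenase going from 16.2 and 17.6 FPKM to 7.69 and 9.19 FPKM in the coleoptile and from 8.93 and 7.08 FPKM to 34.1 and 30.6 FPKM in the leaf.

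The 28 loci lower in the shaded first leaf and higher in the shaded coleoptile had a median difference of -1.43, with 0 called by limma. At an unadjusted p under 0.05 there were 27, against 5.58% of all loci, which the class rule again favours. Bet v I family locus LOC_Os12g36880, of a family of pathogenesis-related proteins, was at 17.5 and 17.9 FPKM in the white light coleoptile, 32.9 and 24.8 FPKM in shade, 69.1 and 52.4 FPKM in the white light leaf and 24.5 and 21.6 FPKM in shade. Its libraries did not overlap within either tissue, and the difference was -2.01 ± 0.29 (limma adjusted p = 0.175). CCT/B-box zinc finger locus LOC_Os02g39710 was at 11.8 and 9.39 FPKM, then 18.5 and 16.4 FPKM, in the coleoptile, and at 21.1 and 25.8 FPKM, then 16.1 and 11.9 FPKM, in the leaf. Its difference was -1.39 ± 0.30 (adjusted p = 0.428), opposite in sign to that of the other B-box locus above.

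Hormone genes of this group were OsIAA25 and a carotenoid dioxygenase. OsIAA25 (LOC_Os08g01780), of the Aux/IAA repressors of auxin response, was at 2.47 and 4.74 FPKM in the white light coleoptile, 7.24 and 6.47 FPKM in shade, 9.17 and 8.16 FPKM in the white light leaf and 4.87 and 6.84 FPKM in shade. The difference was -1.32 ± 0.40 (limma adjusted p = 0.673). The 9-cis-epoxycarotenoid dioxygenase LOC_Os02g47510, an enzyme of abscisic acid synthesis, was at 0.544 and 0.121 FPKM, then 1.74 and 0.721 FPKM, in the coleoptile, and at 30.5 and 27.8 FPKM, then 12.3 and 25.4 FPKM, in the leaf. It was almost a leaf transcript, and its difference was -1.41 ± 0.53 (adjusted p = 0.801). Transporters in the class were the peptide transporter LOC_Os01g65100, with a difference of -1.25 ± 0.26 (adjusted p = 0.397), an amino acid transporter (LOC_Os04g12499, -1.53 ± 0.39) and a potassium transporter (LOC_Os03g37840, -1.23 ± 0.33). Of the 28 loci 25 had white light coleoptile replicates within 2-fold.

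Cell wall genes had the smallest p-values among the 119 loci that were higher in the shaded coleoptile with the first leaf near 0, of which 3 passed the test of the difference and 53 had an unadjusted p under 0.05. Glycine-rich proteins are structural components of plant walls. LOC_Os10g31530, a glycine-rich cell wall protein, was at 19.0 and 26.7 FPKM in the shaded coleoptile, at 0.076 and 0.185 FPKM in the shaded leaf, and listed at 0 in all 4 white light libraries. LOC_Os10g31680, a glycine-rich cell wall structural protein, was at 12.5 and 11.9 FPKM in the shaded coleoptile and listed at 0 in the other 6 libraries. Between these, LOC_Os10g31670, annotated as a retrotransposon protein, was at 10.6 and 10.9 FPKM in the shaded coleoptile, at 0 and 0.0983 FPKM in the shaded leaf and listed at 0 in white light. The differences on the log2(FPKM + 1) scale were -4.38 ± 0.35, -3.73 ± 0.30 and -3.48 ± 0.31 (limma adjusted p = 0.0440, 0.0440 and 0.0480). These loci met the limit on mean FPKM only through the shaded coleoptile, and with every leaf library at or near 0 their leaf response could not be measured, so the test rests on the shaded coleoptile alone. All 3 calls ended with a pseudocount of 0.1 (adjusted p = 0.183, 0.274 and 0.307), and with a mean of at least 5 FPKM the first had adjusted p = 0.3 and the others were not tested.

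Further loci of the stretch had the same pattern without passing. LOC_Os10g31660 was at 35.9 and 79.2 FPKM in the shaded coleoptile and at most 0.657 FPKM elsewhere, LOC_Os10g31640 at 7.2 and 11.9 FPKM against at most 0.152 FPKM, and LOC_Os10g31720 at 3.16 and 8.09 FPKM against at most 0.147 FPKM. With leaf libraries this low their leaf response could not be measured either. Their differences, which rest on the shaded coleoptile, were -5.25 ± 0.58, -3.12 ± 0.40 and -2.52 ± 0.53 (limma adjusted p = 0.103, 0.131 and 0.397). LOC_Os10g31710 and LOC_Os10g31730, the latter a retrotransposon annotation, had shaded coleoptile values of 2.64 and 6.42 FPKM for the first and 6.59 and 9.48 FPKM for the second. The next locus by number outside it, ribosomal RNA assembly protein mis3 (LOC_Os10g31520), was between 17.9 and 27.0 FPKM in all 8 libraries, with a difference of -0.18 ± 0.24. Loci of such a repeated family can share reads, and how the authors' counting divided them is unknown. Of 28 glycine-rich loci tested anywhere in the genome, 2 were called and 6 were in the class higher in the shaded coleoptile, against 0.019% and 0.566% of all loci. Loci of the stretch, with both called ones, were among these 6. They met the limit on mean FPKM only through the shaded coleoptile, so these shares are partly fixed by that limit. Another 2 were in the class lower in the shaded coleoptile (2.88% of all loci). At an unadjusted p under 0.05 in limma, 7 had a lower and 3 a higher first leaf response, against 1.94% and 3.64% of all loci. The median difference of -0.11 was near that of all loci.

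Some proteins that loosen or remodel the wall were in the same class, while others of their families were lower in the shaded coleoptile. Of 29 expansins tested, 2 were in this class (0.566% of all loci) and 2 in the class lower in the shaded coleoptile alone (2.88%). Another 1 was lower in the shaded leaf alone (0.642% of all loci), and the expansin median difference was 0.09. Expansins LOC_Os05g19600 and LOC_Os03g06000 had shaded coleoptile values of 2.61 and 7.4 FPKM for the first and 5.32 and 5.27 FPKM for the second. The first was at most 0.0717 FPKM elsewhere and the second at 1.32 and 1.15 FPKM in the white light coleoptile, and the first leaf response of the second was -0.09. That of the first could not be measured, as its leaf libraries were at or near 0. Glycosyl hydrolase LOC_Os08g14200, of the family that cuts and joins xyloglucan, was at 4.44 and 6.69 FPKM in the shaded coleoptile and at most 0.182 FPKM in the other 6 libraries. With leaf libraries at most 0.0635 FPKM its leaf response could not be measured, so its difference of -2.53 ± 0.38 rests on the shaded coleoptile (limma adjusted p = 0.176). Of 59 glycosyl hydrolase 16 and cellulose synthase loci tested, 2 were in this class (0.566% of all loci). Another 3 were lower in the shaded coleoptile alone (2.88%), and 2 were lower there and higher in the shaded leaf (0.433%). A family member of the opposite class, LOC_Os04g51460, had a difference of 3.28 ± 0.60 (adjusted p = 0.292), with 94.9 and 39.1 FPKM in the white light coleoptile and 7.17 and 11.4 FPKM in shade. Over 81 secreted peroxidases, which cross-link wall polymers, 7 were in the class higher in the shaded coleoptile and 2 in the class lower there, against 0.566% and 2.88% of all loci, with a median difference of 0.10. Peroxidase LOC_Os12g02060 was at 7.65 and 12.6 FPKM, then 29.1 and 23.9 FPKM, in the coleoptile and between 1.01 and 1.75 FPKM in the leaf (difference -1.71 ± 0.36, adjusted p = 0.397). The HD-Zip transcription factor LOC_Os06g04870, of a family with known shade markers, was at 8.69 and 10.6 FPKM, then 20.1 and 21.5 FPKM, in the coleoptile, and between 26.2 and 31.6 FPKM in the leaf. Its shaded coleoptile level stayed under every leaf library, with a difference of -0.89 ± 0.23 (adjusted p = 0.570).

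Stress-linked transcription factors and jasmonate genes were among the 605 loci lower in the shaded coleoptile with the first leaf near 0, of which limma called 0 for the difference and 342 (1.63% of all loci) had an unadjusted p under 0.05. The class held 16 of 70 WRKY loci, 17 of 93 AP2 loci, 8 of 55 NAC loci, 10 of 146 MYB loci and 7 of 27 jasmonate loci, against 2.88% of all loci. WRKY71 (LOC_Os02g08440) was at 375 and 175 FPKM in the white light coleoptile and 37.5 and 42.1 FPKM in shade, and at 105 and 55.0 FPKM in the white light leaf and 62.3 and 112 FPKM in shade. The coleoptile groups were far apart and the leaf groups overlapped, with a difference of 2.80 ± 0.65 (limma adjusted p = 0.463). ZIM domain locus LOC_Os10g25290, of the jasmonate repressor family, was at 425 and 170 FPKM, then 60.6 and 44.9 FPKM, in the coleoptile, and between 61.9 and 101 FPKM in the leaf. Its difference was 2.34 ± 0.63 (adjusted p = 0.586). Gibberellin 2-beta-dioxygenase LOC_Os01g11150, an enzyme that inactivates gibberellin, was at 20 and 11.5 FPKM, then 5.57 and 4.5 FPKM, in the coleoptile and between 3.89 and 6.53 FPKM in the leaf (1.61 ± 0.45, adjusted p = 0.614). Of 58 gibberellin loci 7 were in this class.

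The endonuclease/exonuclease/phosphatase family locus LOC_Os03g46090 had the smallest p of the class and replicates close together. It was at 24.6 and 24.1 FPKM in the white light coleoptile, 6.24 and 6.95 FPKM in shade, 9.39 and 7.81 FPKM in the white light leaf and 8.7 and 8.13 FPKM in shade. Within the coleoptile it fell by 1.74 ± 0.17 on the log2 scale (limma adjusted p = 0.0422), and the difference was 1.72 ± 0.24 (adjusted p = 0.170). In white light 563 of the 605 loci were higher in coleoptile than in leaf (93.1%, against 47.8% of all loci), and the white light coleoptile libraries also define the class. White light coleoptile replicate 1 exceeded replicate 2 by a median of 1.28 over the class. Only 219 of the 605 had the replicates within 2-fold. Without replicate 1, 293 stayed in the class, against 593 without replicate 2. Here too a locus could leave only through the limit on its coleoptile change, which leaving out the lower replicate enlarges. The count of 593 is therefore no separate support for the class. WRKY, AP2 and jasmonate median differences were 0.73, 0.31 and 0.69 with all libraries and 0.42, 0.22 and 0.46 without replicate 1. The NAC median was 0.23 with all libraries and 0.15 without replicate 1. The MYB median of -0.05 was near the -0.03 of all loci, with 81 of 146 MYB loci negative. The gibberellin median was 0.12 with all libraries, -0.23 without replicate 1 and 0.50 without replicate 2.

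**Figure D3:**
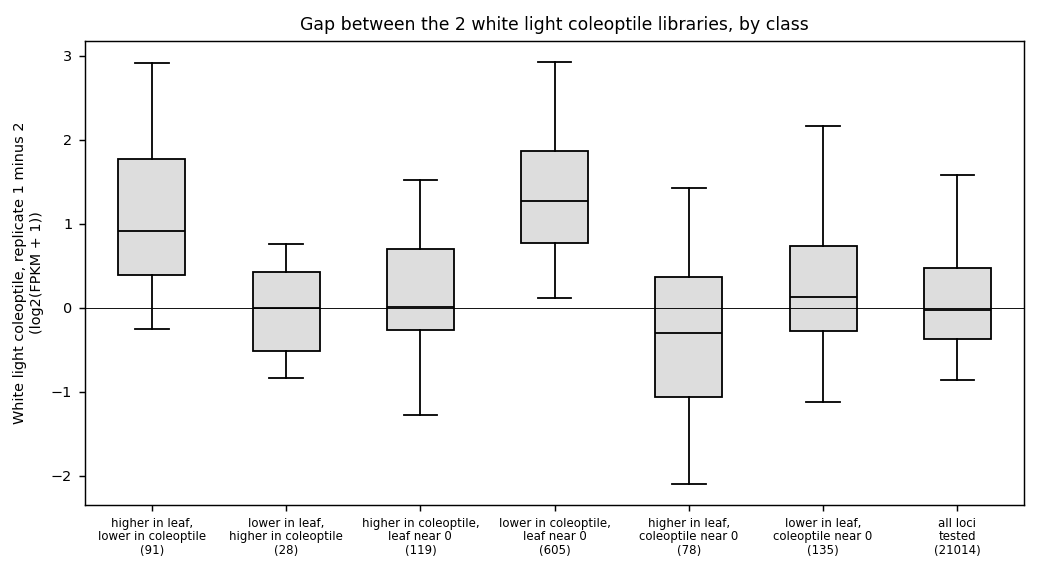
White light coleoptile replicate 1 minus replicate 2 on the log2(FPKM + 1) scale for the loci of each class and for all loci tested, with the number of loci in brackets. Boxes span the 25th to 75th percentile with a line at the median and whiskers the 5th to 95th, and the medians of 0.92 and 1.28 in the classes lower in the shaded coleoptile stand above the -0.02 of all loci.

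Light-responsive and chaperone loci were among the 135 lower in the shaded first leaf with the coleoptile near 0, of which 86 had an unadjusted p under 0.05 and 0 were called. Small chaperone hsp20 LOC_Os06g14240 was at 8.78 and 7.08 FPKM in the white light leaf and 0.174 and 0.213 FPKM in the shaded leaf, and in the coleoptile at 0.995 and 1.25 FPKM in white light and 1.91 and 0.819 FPKM in shade. The leaf groups were far apart and the coleoptile groups overlapped, with a difference of -3.02 ± 0.40 (limma adjusted p = 0.149). MYB transcription factor LOC_Os06g51260 was at 20.8 and 17.7 FPKM, then 2.11 and 2.22 FPKM, in the leaf, and at 4.23 and 5.45 FPKM, then 8.44 and 4.42 FPKM, in the coleoptile. Its difference was -2.97 ± 0.40 (adjusted p = 0.168).

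Over 117 heat shock loci, chaperones and heat stress factors, 8 were in this class, against 0.642% of all loci. At an unadjusted p under 0.05, 16 had a lower and 2 a higher first leaf response, against 1.94% and 3.64% of all loci, and the median difference was -0.13. The DnaK chaperone LOC_Os01g62290 was at 24.7 and 26.1 FPKM in the white light leaf and 5.5 and 3.33 FPKM in shade, with coleoptile libraries between 13.4 and 22.9 FPKM (difference -2.01 ± 0.38, limma adjusted p = 0.313). Heat stress transcription factor LOC_Os10g28340 was at 15.9 and 14.2 FPKM, then 3.62 and 4.13 FPKM, in the leaf, and between 7.27 and 12.6 FPKM in the coleoptile (-1.41 ± 0.32, adjusted p = 0.454).

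Early light-induced proteins bind pigments in chloroplasts under light stress, and all 3 that were tested had a lower first leaf response at an unadjusted p under 0.05. LOC_Os01g14410 was at 311 and 179 FPKM in the white light leaf and 31.3 and 27.0 FPKM in the shaded leaf, and at 769 and 795 FPKM, then 692 and 446 FPKM, in the coleoptile. The leaf response of -2.98 was farther from 0 than the coleoptile response of -0.49, although the coleoptile held more of the transcript, with a difference of -2.49 ± 0.44 (limma adjusted p = 0.292). LOC_Os07g08150 and LOC_Os07g08160 had differences of -2.19 ± 0.34 and -2.58 ± 0.50 (adjusted p = 0.204 and 0.344), with coleoptile responses of -0.53 and -1.28, which put them in no class. At all 3 loci the shaded coleoptile libraries were also below the white light ones, as at LOC_Os07g08150 (368 and 296, then 276 and 187 FPKM).

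Of 34 B-box and CCT loci tested, 4 were among the 135, against 0.642% of all loci. In any class there were 6 (17.6%, against 5.03% of all loci), with 1 in each of the 2 opposite classes. The median difference was -0.34, and it was -0.39 without white light coleoptile replicate 1 and -0.14 without replicate 2. The CCT motif locus LOC_Os10g41100 was at 10.3 and 8.3 FPKM in the white light leaf and 1.92 and 2.65 FPKM in shade, and between 11.2 and 14.7 FPKM in the coleoptile (-1.73 ± 0.31, limma adjusted p = 0.292). B-box locus LOC_Os09g35880 was at 59.3 and 53.2 FPKM, then 27.8 and 27.1 FPKM, in the leaf, and between 36.9 and 41.8 FPKM in the coleoptile (-1.10 ± 0.21, adjusted p = 0.335). The coleoptile libraries of both loci overlapped between light and shade, and the leaf libraries did not. Of 12 loci listed by identifier as clock genes, 1 was classed (8.33%, against 5.03% of all loci) and 5 had an unadjusted p under 0.05 (41.7%, against 5.58%). The response regulator receiver loci LOC_Os07g49460, the classed one, and LOC_Os03g17570 had differences of -1.23 ± 0.22 and -1.14 ± 0.21 (adjusted p = 0.292 for each), and ELF3 (LOC_Os01g38530), a component of the evening complex of the clock, had 0.82 ± 0.29 (adjusted p = 0.773).

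The 78 loci higher in the shaded first leaf with the coleoptile near 0 included 26 at an unadjusted p under 0.05 and 0 called. Stem-specific protein TSJT1 (LOC_Os04g58280) was at 12.3 and 14.4 FPKM in the white light leaf and 51.7 and 46.3 FPKM in shade, and at 30.6 and 39.3 FPKM, then 27.4 and 25.8 FPKM, in the coleoptile. The leaf was below every coleoptile library in white light and above every one in shade, with a difference of 2.17 ± 0.25 (limma adjusted p = 0.103). Asparagine synthetase LOC_Os03g18130, which makes the amide that carries nitrogen out of reserves, was at 2.31 and 5.24 FPKM, then 14.5 and 17.5 FPKM, in the leaf, against 611 to 1117 FPKM in the coleoptile (1.64 ± 0.52, adjusted p = 0.716). Universal stress protein LOC_Os01g19820 was at 10.5 and 6.35 FPKM, then 48.1 and 40.1 FPKM, in the leaf, and at 45.3 and 88.2 FPKM, then 46.6 and 43.3 FPKM, in the coleoptile (2.77 ± 0.48, adjusted p = 0.292). In shade its tissues overlapped. Dirigent protein LOC_Os10g18820, of a family that guides lignan coupling, was at 1.16 and 0.223 FPKM, then 7.39 and 4.76 FPKM, in the leaf and listed at 0 in all 4 coleoptile libraries, so its coleoptile response could not be measured.

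**Figure D4:**
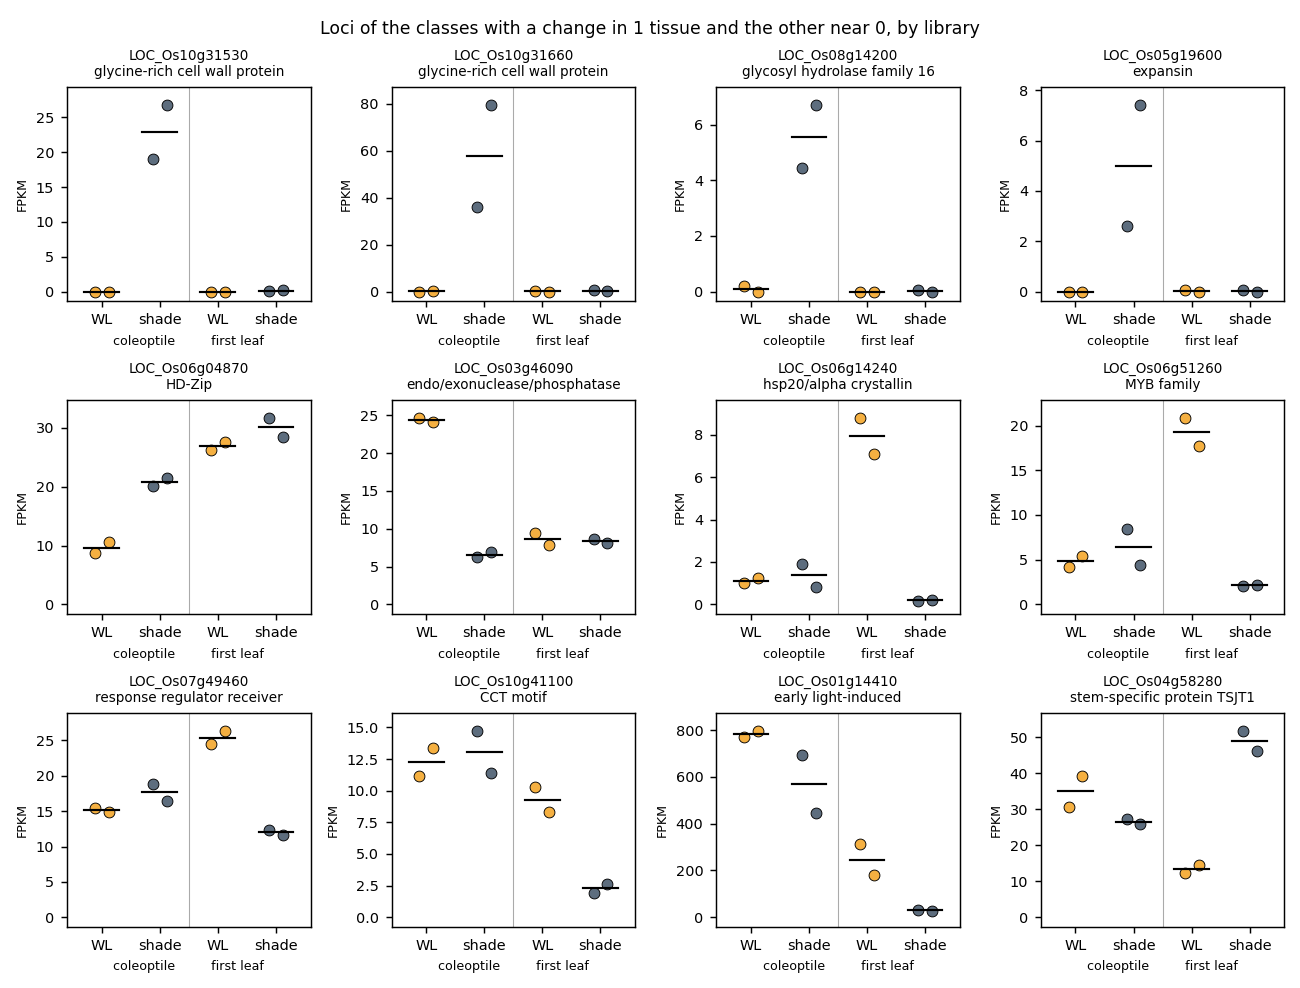
FPKM of 12 loci in each library, with orange points for white light (WL), grey points for shade and a bar at the mean of 2 libraries, and a vertical line between coleoptile and first leaf. The first 6 panels show loci with a coleoptile change and the first leaf near 0, such as LOC_Os10g31530 at 19.0 and 26.7 FPKM in the shaded coleoptile, and the last 6 loci with a first leaf change and the coleoptile near 0, such as the MYB factor LOC_Os06g51260 at 20.8 and 17.7 FPKM in white light and 2.11 and 2.22 FPKM in shade.

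Limma called the difference at 0 of the 3 phytochromes, with 0 at an unadjusted p under 0.05. Phytochrome B (LOC_Os03g19590) was at 12.3 and 12.6 FPKM, then 14.7 and 13.9 FPKM, in the coleoptile, and at 11.2 and 15 FPKM, then 17.0 and 22.0 FPKM, in the leaf (0.36 ± 0.29, limma adjusted p = 1.0). Phytochrome A (LOC_Os03g51030) and phytochrome C (LOC_Os03g54084) had differences of 0.10 ± 0.41 and 0.13 ± 0.25. The phytochrome A-associated F-box protein LOC_Os05g30190, which is no photoreceptor, had -0.84 ± 0.37 (limma adjusted p = 0.924). Of 5 helix-loop-helix loci listed by identifier as phytochrome-interacting factor-like, all had a negative difference (median -0.62), against 11236 of 21014 loci tested. Limma called 0 of the 5 and gave 2 an unadjusted p under 0.05, against 1.94% of all loci in that direction. In the classes, 1 of the 5 was higher in the shaded coleoptile alone (0.566% of all loci). Helix-loop-helix locus LOC_Os03g43810 of that list was at 2.99 and 2.32 FPKM, then 3.29 and 2.79 FPKM, in the coleoptile and at 9.18 and 7.7 FPKM, then 3.7 and 5.81 FPKM, in the leaf (-0.88 ± 0.35, adjusted p = 0.833).

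Hormone lists other than those of jasmonate and gibberellin were closer to the 5.03% of all loci in a class. Of 27 Aux/IAA loci 2 were classed, of 38 SAUR loci 3, of 49 auxin response factors and carriers 2, of 25 brassinosteroid loci 1, of 11 abscisic acid loci 1, of 28 ethylene loci 3 and of 26 cytokinin loci 1. Limma called 0 in each of these lists, and 3, 2, 2, 4, 1, 5 and 3 loci in that order had an unadjusted p under 0.05, against 5.58% of all loci. The shares of SAUR loci (5.26%) and of auxin response factors and carriers (4.08%) were under that. Those of abscisic acid (9.09%), Aux/IAA (11.1%), cytokinin (11.5%), brassinosteroid (16.0%) and ethylene loci (17.9%) were above it. OsIAA19 (LOC_Os05g48590) was at 233 and 113 FPKM in the white light coleoptile, 71.5 and 67.0 FPKM in shade and between 43.1 and 49.0 FPKM in the leaf (1.33 ± 0.43, limma adjusted p = 0.724). Gibberellin 20 oxidase 2 (LOC_Os01g66100), which makes gibberellin precursors, was at 1.88 and 3.35 FPKM, then 14.5 and 14.3 FPKM, in the coleoptile and at 0.696 and 0.807 FPKM, then 2.55 and 2.65 FPKM, in the leaf. It was higher in every shade library of both tissues, and the difference of -1.08 ± 0.34 did not pass (adjusted p = 0.699). Without white light coleoptile replicate 1 the Aux/IAA median difference was 0.44, against 0.16 with all libraries and -0.03 without replicate 2. The SAUR median was 0.40, against -0.12 and -0.54.

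Ribosomal, cell division and histone lists were below the 5.03% of all loci in a class. Of 290 ribosomal protein loci 1 was in a class (0.345%), of 124 cyclin and cell division loci 1 (0.806%), and of 47 core histone loci 0. Limma called 0 in each, with 3, 2 and 2 loci at an unadjusted p under 0.05. The core histone median difference was -0.40, with 40 of 47 loci negative, and was -0.77 without white light coleoptile replicate 1 and 0.13 without replicate 2. The ribosomal median of -0.07 was -0.33 and 0.19 in the same fits. Of 52 photosynthesis loci 5 were in a class (9.62%), and the 21 leaf marker loci had 0 in a class and a median difference of -0.48, which was -0.03 without replicate 1 and -0.87 without replicate 2.

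**Figure D5:**
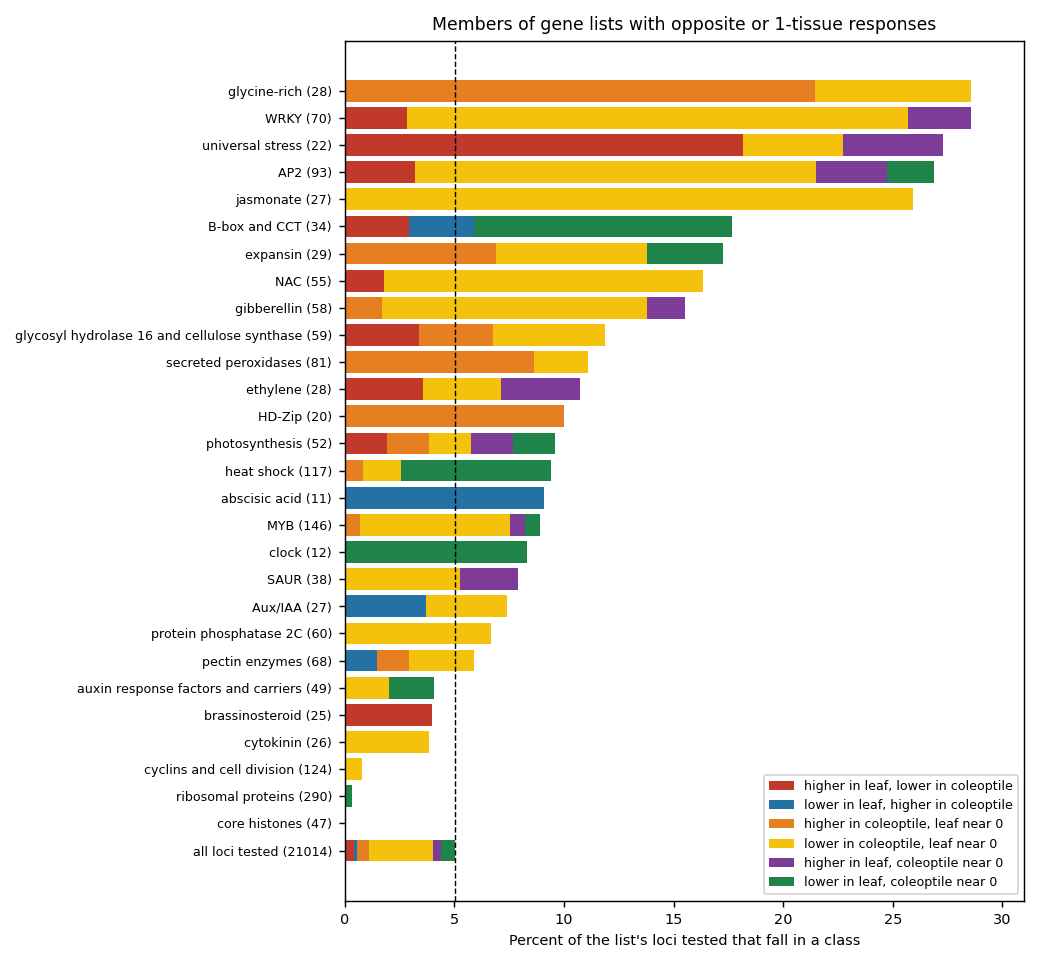
Share of tested loci that fell in a class of opposite or 1-tissue responses, in percent, for the gene lists with at least 10 loci tested, other than the markers and the lists chosen after values were seen. The number tested stands in brackets, with colours for the classes and a dashed line at the 5.03% of all loci tested. Glycine-rich and WRKY loci (28.6% each), universal stress (27.3%), AP2 (26.9%) and jasmonate loci (25.9%) have the longest bars drawn, and core histones have none. The glycine-rich bar includes neighbouring loci that met the limit on mean FPKM only through the shaded coleoptile.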

How the data were processed

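RNA of 8 rice libraries, 4 groups of 2, was sequenced as paired reads of 150 bp, per the labels. The authors deposited 1 table of FPKM for 55801 loci with a text annotation, from which all names come. The tools listed in the submitters' processing notes are Cufflinks 2.2.1, Cuffdiff 2.2.1, Cuffnorm 2.2.1, Bowtie2 2.2.3, TopHat2 2.0.14, FastQC 0.11.2, Trim Galore 0.3.7 and bcl2fastq 2.16.0.10. The genome build is not given in the sources used here. FPKM are no counts, so log2(FPKM + 1) values were tested with limma 3.58.1 in R 4.3.3, which understates changes of low loci. Loci averaging 1 FPKM or more entered, 4 group means were fitted with trended empirical Bayes moderation (4 residual and 3.26 prior degrees of freedom), and p-values were adjusted over all 21014 loci. Errors are limma's SE.

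Classes, members and the 34 gene lists, keywords in the annotation or locus identifiers, were chosen with earlier results of these data known, and 9 lists after values of the difference were seen. Named loci were those called, the 8 smallest p per class and direction with a named function, up to 3 per list, the 10 smallest p and the phytochromes, with an F-box protein that the keyword also took. Members of lists beyond these were chosen after their values were seen. Alternatives were the pseudocount, the filter, scaling, moderation, a replicate block and leaving out each library. Deviations of same-numbered replicates had correlations from -0.148 to 0.085, so the numbers were not taken to pair samples.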

Additional observations from a re-analysis of the deposited data

Results flagged for a closer look

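The difference between the shade responses passed limma's test at 4 loci. At aldehyde dehydrogenase LOC_Os02g49720 it was 2.82 on the log2(FPKM + 1) scale, with all 4 libraries of each tissue separated by light in opposite directions. At LOC_Os10g31530, LOC_Os10g31680 and LOC_Os10g31670 it was -4.38, -3.73 and -3.48, with both shaded coleoptile libraries above the other 6. Each of these values came from 2 libraries a group, and each call was lost without any 1 of the 6 libraries other than the white light coleoptile ones. All 4 were lost with a pseudocount of 0.1, and the count was 0 with a mean of at least 5 FPKM.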

How the results depend on the processing

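The count of loci called for the difference depended on most settings. It was 4 with all libraries and libraries as deposited, 0 with a pseudocount of 0.1, 39 with no filter on low values, 0 with a mean of at least 5 FPKM, 4 with libraries scaled to equal medians, 5 with quantile normalization and 7 without a trend. With the replicate block it was 0, and 0 with the block within tissue, and the smallest adjusted p was 0.115 and 0.186. Leaving out 1 library at a time, which leaves a lone library assumed to vary like the other groups, gave 0 to 887. Without white light coleoptile replicate 1 and without replicate 2, 52 and 887 loci were called, of which 35 were shared (34 with the same sign, 65.4% of the first list and 3.83% of the second). The counts of classes moved by over 1.5 times under fewer settings. Over the leave-one-out fits the loci higher in the shaded leaf and lower in the shaded coleoptile numbered 105 to 291 (91 with all libraries), and the reverse 29 to 201 (28). Coleoptile loci with the leaf near 0 numbered 601 to 1564 (724), and leaf loci with the coleoptile near 0 160 to 513 (213). The reverse opposite class and the leaf class numbered 64 and 338 with a pseudocount of 0.1 and 12 and 133 with a mean of at least 5 FPKM. Restricted to loci with white light coleoptile replicates within 2-fold, chosen after seeing the data, the first opposite class numbered 47 and the coleoptile class 308. The sign of the difference turned in some leave-one-out fits at phytochrome A (LOC_Os03g51030, -0.26 to 0.47), phytochrome C (LOC_Os03g54084, -0.03 to 0.28) and LOC_Os10g11500 (-2.95 to 2.57). The cause of these changes was not tested. With 2 libraries a group and no fragment totals, low loci and small differences could not be resolved.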

Other observations

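SCP-like extracellular protein LOC_Os10g11500 was at 1.9 FPKM in white light coleoptile replicate 1 and 132 FPKM in replicate 2, and at 15.1 and 17.6 FPKM in the shaded coleoptile. In the leaf it was at 60.9 and 46.0 FPKM in white light and 35.0 and 47.1 FPKM in shade. The difference of its shade responses was -0.19 ± 2.07 with all libraries, 2.57 without the first of these libraries and -2.95 without the second, and limma called it in both of those fits (adjusted p = 0.0447 and 0.00608). It was the 1 locus of the 35 called in both that had opposite signs. The locus was chosen after its values were seen.

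Among the 34 loci called with the same sign in both fits, 25 had the higher response in first leaf and 9 in coleoptile. Of these 34, 17 belonged to the class higher in the shaded leaf and lower in the shaded coleoptile, 6 to the class higher in the shaded coleoptile alone, 5 to the class lower there alone, 3 to the first leaf classes and 3 to no class. They include LOC_Os03g45250 and LOC_Os12g02040 of the fermentation and oxygen list, and the universal stress loci LOC_Os03g19270 and LOC_Os05g28740. LOC_Os11g10510, annotated only as a dehydrogenase and not on that list, is also among them. The fits share 7 of 8 libraries with the whole set and 6 with each other, so they are not independent.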
